A study of Homo sapiens with 117 samples.

Results

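The H19 and IGF2 imprinted locus was examined in 24 CTCF ChIP-seq peak lists from DIvA cells. Its members were all peaks whose summit, the base with the most reads in a peak, lay between 1.95 and 2.2 Mb of GRCh38 chromosome 11. This rule took 385 of the 6621481 peaks of the 24 lists, with 12 to 20 peaks in each list. Peaks of different lists whose summits lay close together were joined into 52 sites. Of these, 15 were recurrent, meaning present in at least 12 lists, and 6 were present in all 24 lists. The 15 recurrent sites held 308 of the 385 peaks, and 27 of the 52 sites were found in 1 list only. The other 10 non-recurrent sites were in 2 to 11 lists. Across the genome, 79830 sites were recurrent and 29716 were in all 24 lists. Of the 10893 stretches of 250 kb with a recurrent site, the median held 4, and 4.89% held at least 15.

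DIvA is a derivative of the U2OS osteosarcoma line that carries AsiSI-ER, a restriction enzyme fused to an oestrogen receptor part, so that 4-hydroxytamoxifen (4-OHT) brings the enzyme to the nucleus to cut DNA. Every library came from these cells, transduced by lentivirus with IDH1 WT or IDH1 R132H, and the mutant enzyme makes D-2-hydroxyglutarate. Libraries were collected untreated (−DSB) or after 300 nM 4-OHT for 4 h (+DSB). IDH1 WT cells gave 3 lists −DSB and 4 +DSB, and IDH1 R132H cells gave 4 of each. R132H cells that overexpressed TET1 CD, the catalytic domain of a methylcytosine oxidase, gave 2 lists −DSB and 2 +DSB, and R132H cells with TET1 dCD, the mutated form of that domain, gave 3 −DSB and 2 +DSB. The study compared genotypes and treatments to ask how D-2-hydroxyglutarate, an inhibitor of TET enzymes, bears on CTCF binding and DNA repair. The 4C-seq libraries of the series and 1 WT −DSB library were not analysed here. No AsiSI site lay in the window, and the nearest was 714.8 kb away.

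H19 and IGF2 are neighbouring genes with opposite imprinting. H19 encodes a long non-coding RNA that hosts the microRNA MIR675, and IGF2 encodes a fetal growth factor. CTCF is a zinc-finger protein that binds a long DNA motif, holds chromatin loops and can insulate enhancers from promoters. In the textbook account, CTCF binds the control region upstream of H19 on the maternal copy, which is unmethylated, and keeps IGF2 from the enhancers beyond H19. On the paternal copy the region is methylated, CTCF does not bind, and IGF2 is expressed. Methylation of CpGs inside the motif blocks binding there. A peak list does not separate the parental copies. A lower peak can come from fewer cells with CTCF bound or from less CTCF bound per cell, and these cannot be told apart here.

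The lists differ in ways that touch every comparison between groups. The run names stored with the peaks disagreed with the labels of 9 lists. The lists labelled WT −DSB carried names of untreated mutant runs, those labelled R132H −DSB carried names of untreated wild-type runs, and TET1 dCD −DSB replicates 1 and 2 carried names of treated TET1 CD runs. Groups below follow the labels, and readings for the run-name groups are given where stated. Depth, estimated from the background of each list, was 22.7 to 35.1 M reads in WT −DSB and 23.7 to 34.6 M in R132H +DSB. It was 70.9 to 85.5 M in WT +DSB and 44.3 to 63.2 M in R132H −DSB. Fragment lengths, taken as the shortest peak of each list, split the same way, with 121 to 128 bp in the former pair of groups and 143 to 191 bp in the latter. The depth estimate uses this length, so the measures are not independent. The TET1 lists had 26.6 to 41.7 M reads and fragments of 118 to 194 bp. The part of depth and fragment length in the differences between groups was not tested, and in the WT and R132H comparisons they cannot be told apart from the groups. Some lists of a group differed by less than the sampling noise and were counted as 1 sample, which left 16 samples. For both treatments alike, these were 2 samples of WT, 3 of R132H, 1 of TET1 CD and 2 of TET1 dCD. The study describes biological replicates for the CTCF ChIP-seq, with different numbers in different places, but does not say which lists they are. The p-values therefore measure only the spread between these samples, which may be technical.

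The sequences that carry the H19 control region are shown first, because the main H19 peaks sat on copies of the same motif. Each line gives 40 bases of GRCh38, 5′ to 3′ on the minus strand, with the 20-base match to the CTCF weight matrix in capitals. All lie upstream of the commonest H19 transcript start, position 1997842 on the minus strand, and inside introns of longer H19 transcripts.
Repeat 1, chr11:1999956-1999995: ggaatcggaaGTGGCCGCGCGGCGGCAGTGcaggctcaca
Repeat 2, chr11:2000768-2000807: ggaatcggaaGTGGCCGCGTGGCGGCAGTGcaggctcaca
Repeat 3, chr11:2001174-2001213: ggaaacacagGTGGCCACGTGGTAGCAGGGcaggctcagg
Repeat 4, chr11:2002201-2002240: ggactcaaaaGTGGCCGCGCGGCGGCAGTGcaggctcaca
Repeat 5, chr11:2002602-2002641: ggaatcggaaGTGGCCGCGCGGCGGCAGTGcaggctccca
Repeat 6, chr11:2003007-2003046: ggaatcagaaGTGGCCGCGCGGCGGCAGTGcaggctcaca

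Repeats 1, 4, 5 and 6 had the same 20 matched bases, with 4 CpGs inside each match. Repeat 2 differed from repeat 1 at a single base, C10T with positions counted from 1 at the first capital, which left 3 CpGs. Repeat 3 kept 15 of the 20 bases and 1 CpG. The unbroken stretch shared with repeat 1 ran for 43 bp around repeat 4, 49 bp around repeat 5 and 48 bp around repeat 6. A read that falls wholly inside such a stretch can be placed on more than 1 copy. The read lengths and the effect of the study's quality filter on reads were not examined, so the share of CTCF on each repeat is uncertain.

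A second set shows the strong sites elsewhere in the window and the weaker sites beyond TH found in 11 and in 23 lists, each with its own motif. The strand read is named on each line, and capitals again mark the match.
MRPL23 intron, plus strand, chr11:1953692-1953731: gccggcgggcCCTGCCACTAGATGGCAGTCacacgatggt
Between H19 and IGF2, plus strand, chr11:2037042-2037081: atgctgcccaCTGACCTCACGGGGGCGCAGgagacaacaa
IGF2 upstream pair, first, minus strand, chr11:2151591-2151630: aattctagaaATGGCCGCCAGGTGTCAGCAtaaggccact
IGF2 upstream pair, second, minus strand, chr11:2152125-2152164: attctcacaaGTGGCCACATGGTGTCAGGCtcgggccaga
IGF2 and INS-IGF2 intron, minus strand, chr11:2156619-2156658: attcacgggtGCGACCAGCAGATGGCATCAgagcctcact
Beyond TH, in 11 lists, minus strand, chr11:2173329-2173368: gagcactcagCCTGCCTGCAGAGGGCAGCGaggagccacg
Beyond TH, in 23 lists, plus strand, chr11:2186840-2186879: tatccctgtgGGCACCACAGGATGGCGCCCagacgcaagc
Beyond TH, minus strand, chr11:2195075-2195114: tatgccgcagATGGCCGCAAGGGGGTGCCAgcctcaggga
Beyond TH, plus strand, chr11:2197378-2197417: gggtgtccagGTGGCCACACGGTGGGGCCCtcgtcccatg

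The match at the MRPL23 site held 0 CpGs and scored 20.8, the highest of the window, while repeat 1 scored 8.55 with 4. The score is a sum of log ratios of base frequencies, and a threshold on it was set so that 5.00% of control windows beside CTCF sites passed. With that threshold, 87.5% of the 29710 sites outside the window that were in all 24 lists had a match within 50 bp of their centre. All 6 sites of the window in all 24 lists had one too. A match describes letters only and does not show that CTCF contacts them.

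The 15 recurrent sites spanned the window from MRPL23, a mitochondrial ribosomal protein gene, past INS (insulin) and TH (tyrosine hydroxylase) on the far side of IGF2. H19 lay at chr11:1995166-2004552 and IGF2 at chr11:2129112-2158391, both on the minus strand in GENCODE, with the IGF2 canonical transcript starting at 2139389. Ranks count from 1 for the peak with the highest deposited fold in a list, so a low rank is a strong peak. By median rank over the lists that held it, the site at chr11:2151640 in the IGF2 intron led at 12498, and the H19 repeat 6 site at chr11:2003020 followed at 14263. These were present in 13 and 17 lists, and the summit there moved between neighbouring motifs from list to list. The 6 sites in every list had median ranks of 18186 at chr11:2156654, 19927 at chr11:2037045, 19994 at chr11:1999972, 21316 at chr11:1953701, 21945.5 at chr11:2197384 and 23925.5 at chr11:2195125. The strongest of these lay in an intron of IGF2 and INS-IGF2, chr11:1999972 lay on H19 repeat 1, 2130 bp upstream of the H19 start, and chr11:2195125 and chr11:2197384 lay between genes beyond TH.

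**Figure D1:**
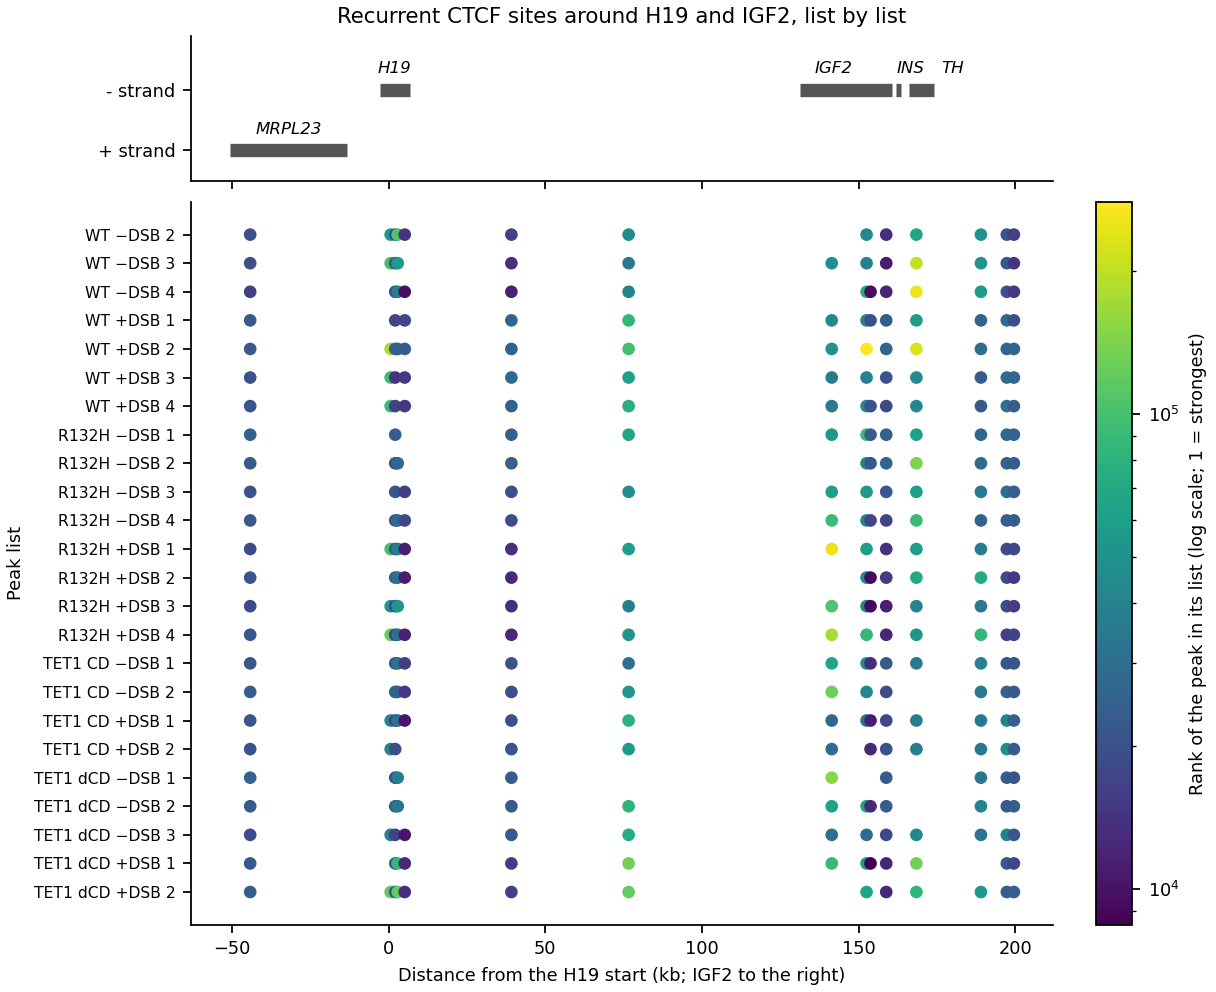
Peaks at the 15 recurrent sites, 1 row per list, against distance from the commonest H19 start (kb, x axis, IGF2 to the right), with colour for the rank of the peak in its list (log scale, darker is stronger) and the genes above. The columns at −44.1, 2.1, 39.2, 158.8, 197.3 and 199.5 kb are filled in all 24 lists.

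CpG content varied among the sites of the window. Within 100 bp of its centre on each side the H19 repeat 1 site held 18 CpGs, the repeat 2 site at chr11:2000788 held 15 and the repeat 6 site held 14. The median over the sites in all lists outside the window was 3, with a 10th percentile of 0 and a 90th of 14. The MRPL23, intergenic chr11:2037045, chr11:2156654, chr11:2195125 and chr11:2197384 sites held 7, 8, 7, 7 and 7 CpGs, and the TH exon site at chr11:2166271 held 18. The recurrent site at chr11:2139260 lay in an IGF2 exon, 129 bp inside the canonical start, and held 32 CpGs and 82.1% GC. It was a weak peak, in 19 lists with a median rank of 60288, and 0.569% of the comparison sites held as many CpGs. GC content at the 6 sites in every list ran from 61.7% to 68.2%, against a median of 47.3% outside the window. All 6 lay among the GC-richest 20% of sites.

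At the H19 control region the peak lists resolved a proximal and a distal block. The proximal block, chr11:1999518-2001242, covered repeats 1 to 3 with 76 CpGs in 1725 bp. Its strongest summit lay within 50 bp of the repeat 1 match in 22 lists and of the repeat 2 match in 2. The nearest of these summits to repeat 3 was 393 bp away. The distal block, chr11:2001427-2003685, covered repeats 4 to 6 with 85 CpGs in 2259 bp, which is 37.6 per kb. Its strongest summit was at repeat 6 in 17 lists, at repeat 4 in 5 and at repeat 5 in 1, within 50 bp of the match. As a block it was present in all 24 lists with a median rank of 14410, ahead of the proximal block at 19994. It held 37 to 217 reads at the strongest summit. Between the commonest start and repeat 1, a weak site at chr11:1998519 was found in 12 lists with a median rank of 92306 and 18 CpGs. The repeat 2 site, in 17 lists, had a median rank of 32530 and a deposited fold of 3.70 to 14.3.

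**Figure D2:**
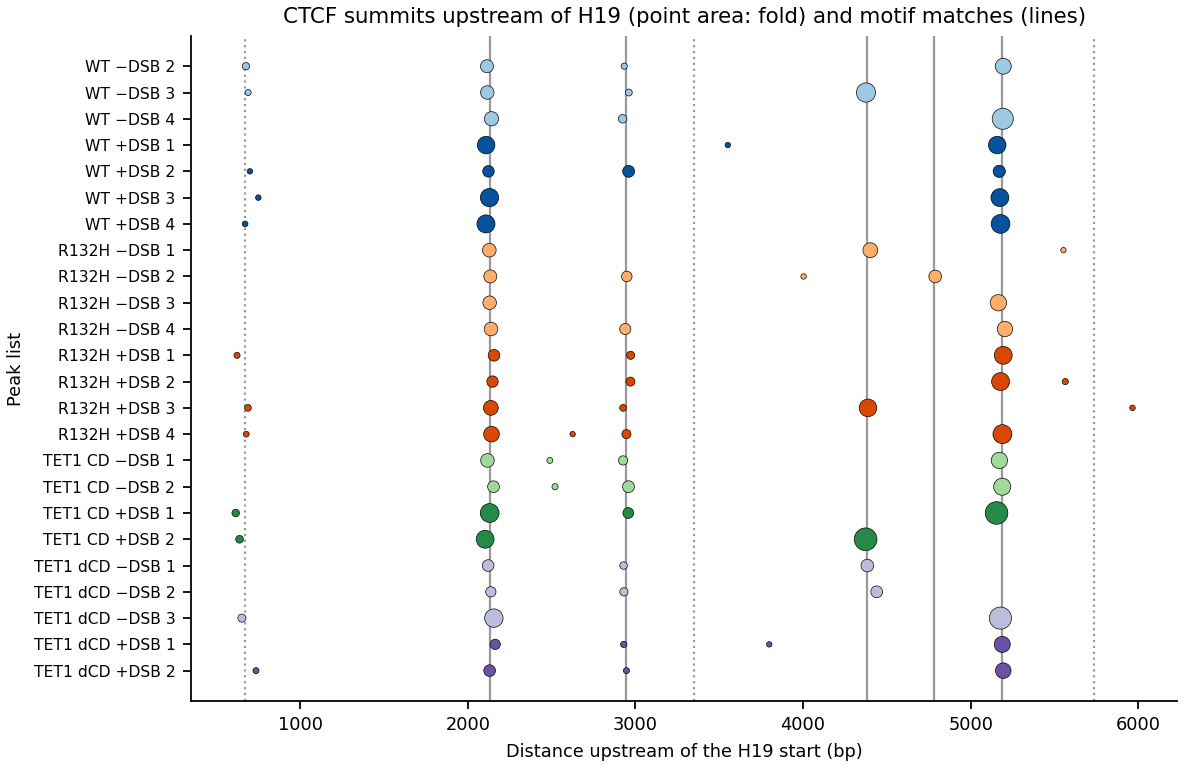
CTCF summits of each list (rows) against distance upstream of the commonest H19 start (bp, x axis), with point area for the deposited fold and lines for motif matches, solid where the match holds at least 3 CpGs. Large points stand on repeat 1 in every list, and in the distal block on repeat 6 in most lists and on or near repeats 4 or 5 in the others.

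Upstream of the IGF2 canonical start the strongest summit also moved between neighbouring motifs. The region chr11:2149996-2152860 held matches at 2151601 (score 17.1) and 2152135 (score 9.91), and the summit lay at the first in 13 lists and at the second in 11. The first is 12222 bp upstream of the IGF2 canonical start and within introns of longer IGF2 transcripts. As a region it was in all 24 lists, with a median rank of 12182.5, and was the strongest of the window. Its best rank was 7113 and its worst 23401. It held 56 CpGs in 2865 bp, or 19.5 per kb against 37.6 in the distal H19 block.

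The number of peaks in the window did not pass an exact permutation test in any comparison. Per sample the mean count was 14.5 ± 0.707 (SD, n = 2) in WT −DSB, 17.3 ± 1.89 (n = 2) in WT +DSB, 15.8 ± 1.89 (n = 3) in R132H −DSB and 17.2 ± 1.26 (n = 3) in R132H +DSB. R132H exceeded WT by 0.583 peaks when averaged over the treatments, with p = 0.61 by a 2-sided exact permutation test whose smallest possible p was 0.01. The sign of this difference turned in several alternatives. For 4-OHT the differences were 2.83 peaks in WT (exact p = 0.333, the smallest possible) and 1.33 in R132H (exact p = 0.4, smallest possible 0.1). Between the TET1 forms the difference, CD minus dCD, was −0.5 peaks (exact p = 0.778, smallest possible 0.111).

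The count of strong peaks split differently. Among the 20000 strongest peaks of each list, the window held 6.75 ± 0.354 in WT −DSB and 6.83 ± 0.764 in R132H +DSB. It held 1.33 ± 1.89 in WT +DSB and 1.33 ± 1.53 in R132H −DSB. The samples with many and with few strong peaks are those that also differ in depth and fragment length. Under the run names both wild-type groups had the mean of 1.33, and the mutant groups had 6.75 and 6.83. The change with 4-OHT was −5.42 peaks in WT (exact permutation p = 0.333) and 5.5 in R132H (exact p = 0.1), each the smallest p these samples allow. The TET1 samples lay between, with 3 in CD −DSB, 4.5 in CD +DSB, 3.75 ± 1.77 in dCD −DSB and 4.5 ± 0.707 in dCD +DSB.

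Levels were compared at the 6 sites in every list, as the deposited fold over background after quantile normalisation across the 29716 sites found in all lists. At H19 repeat 1 the normalised fold was 20.7 and 19.9 in WT −DSB, 25.9 and 13.9 in WT +DSB, 15.2, 20.1 and 17.5 in R132H −DSB, and 17.4, 16.8 and 24.4 in R132H +DSB. The 4 groups overlapped, and no comparison passed the test at this site, which does not show that the levels were equal. R132H differed from WT by −0.21 on the log2 scale −DSB (limma adjusted p = 0.581) and by 0.02 +DSB (adjusted p = 0.9615). In the TET1 samples the values were 15.2 in CD −DSB, 22.1 in CD +DSB, 17.4 and 24.2 in dCD −DSB, and 15.3 and 19.6 in dCD +DSB.

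The intergenic site at chr11:2037045 had the largest difference between the changes with 4-OHT of the 6. Its normalised fold was 24.6 and 32.2 in WT −DSB, 13.2 and 13.5 in WT +DSB, 13.2, 13.5 and 19.4 in R132H −DSB, and 30.1, 32.5 and 31.3 in R132H +DSB. WT −DSB and R132H +DSB were above WT +DSB and R132H −DSB in every sample. R132H was lower than WT −DSB, with a log2 difference of −0.90 (SE 0.16, limma adjusted p = 0.006207), and higher +DSB by 1.23 (SE 0.16, adjusted p = 0.001212). With 4-OHT the level fell in WT, −1.08 (adjusted p = 0.003593), and rose in R132H, 1.05 (adjusted p = 0.00171). The difference between these changes was 2.12 (SE 0.23, adjusted p = 0.0001503). The TET1 samples read 19.31 in CD −DSB, 19.01 in CD +DSB, 16.05 and 16.1 in dCD −DSB, and 26.5 and 25.0 in dCD +DSB.

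The IGF2 and INS-IGF2 intron site at chr11:2156654 again had its highest levels in WT −DSB and R132H +DSB. Its normalised fold was 30.8 and 33.9 in WT −DSB, 18.8 and 12.7 in WT +DSB, 14.7, 13.1 and 19.6 in R132H −DSB, and 29.3, 26.8 and 33.8 in R132H +DSB. No WT +DSB or R132H −DSB sample reached the lowest of the other groups. R132H was lower −DSB, with a log2 difference of −1.05 (SE 0.22, limma adjusted p = 0.00917), and higher +DSB by 0.94 (SE 0.22, adjusted p = 0.009472). Its difference between the genotypes in the change with 4-OHT was 2.00 (SE 0.31, adjusted p = 0.0006807). The call −DSB rested on both WT −DSB samples, with differences of −1.12 and −0.98 (limma adjusted p = 0.0595 and 0.0534) when either was left out. Without WT +DSB replicate 2 the +DSB difference was 0.66, with adjusted p = 0.0739. The TET1 samples read 18.4 in CD −DSB, 20.7 in CD +DSB, 15.7 and 21.6 in dCD −DSB, and 33.6 and 32.1 in dCD +DSB.

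At both sites beyond TH that were in all lists, WT −DSB and R132H +DSB lay above the other 2 groups. At chr11:2197384 the normalised fold was 26.01 and 28.05 in WT −DSB, 15.6 and 12.2 in WT +DSB, 13.8, 15.6 and 14.9 in R132H −DSB, and 23.01, 27.72 and 25.39 in R132H +DSB. Its log2 differences were −0.87 for R132H against WT −DSB (limma adjusted p = 0.005239) and 0.87 +DSB (adjusted p = 0.003188). At chr11:2195125 the normalised fold was 18.6 and 18.1, 10.9 and 13.2, 11.71, 13.11 and 11.96, and 20.6, 22.6 and 23.2 in the same groups in that order. R132H was higher there +DSB by 0.89 (SE 0.31, adjusted p = 0.04608), while −DSB the difference was −0.58 (adjusted p = 0.1808). Leaving out 1 sample of the groups compared ended the +DSB call at chr11:2195125 in 5 of 5 fits, with differences of 0.74 to 1.03 and adjusted p from 0.07696 to 0.2222. The TET1 samples at chr11:2197384 read 16.9 in CD −DSB, 13.8 in CD +DSB, 16.3 and 16.5 in dCD −DSB, and 23.2 and 16.7 in dCD +DSB.

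The MRPL23 intron site at chr11:1953701, which has a strong motif with no CpG, had the narrowest separation of groups. Its normalised fold was 20.1 and 22.8 in WT −DSB, 17.7 and 17.4 in WT +DSB, 13.83, 15.99 and 17.76 in R132H −DSB, and 22.6, 17.9 and 19.1 in R132H +DSB. In the joined samples WT −DSB and R132H +DSB were above the other 2 groups, with 17.9 against 17.8 at the nearest point. Compared as a peak region they overlapped, with a lowest value of 17.83 against a highest of 17.95. Their deposited folds, list by list, also overlapped, at 14.05 to 26.30 against 14.08 to 26.21. R132H against WT gave −0.44 −DSB (limma adjusted p = 0.07363) and 0.17 +DSB (adjusted p = 0.4311). The TET1 samples read 16.03 in CD −DSB, 18.04 in CD +DSB, 14.4 and 20.5 in dCD −DSB, and 17.8 and 16.7 in dCD +DSB.

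**Figure D3:**
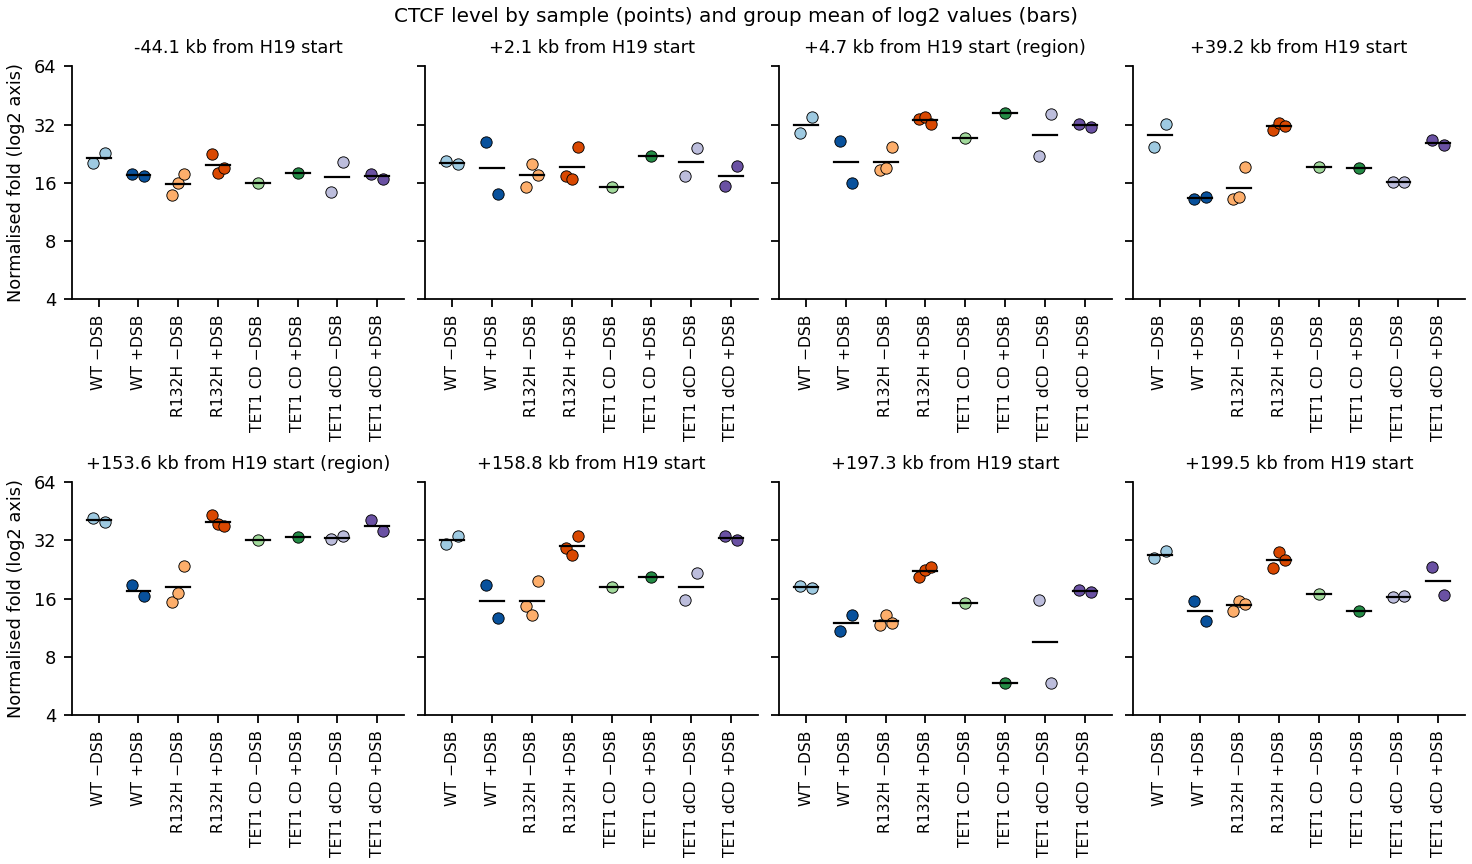
Normalised fold (log2 axis) of every sample at the 6 sites in all lists and at the distal H19 (4.7 kb) and IGF2 upstream (153.6 kb) peak regions, with 1 point per sample and bars for the group mean of log2 values. WT −DSB and R132H +DSB lie above WT +DSB and R132H −DSB everywhere but at H19 repeat 1, and only narrowly at the MRPL23 intron site.

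Across the 6 sites, R132H was lower than WT −DSB at 3 of 6, where 23.8% of all sites were called in either direction and 10.8% lower. It was higher +DSB at 4 of 6, where 35.2% were called and 18.1% higher. With 4-OHT, 3 of 6 fell in WT (30.5% called, 15.5% lower) and 4 of 6 rose in R132H (28.5% called, 13.6% higher). The change with 4-OHT differed between the genotypes at 5 of 6, all higher in R132H, where 51.4% of sites were called and 27.4% higher. The call at chr11:1953701 (0.61, limma adjusted p = 0.04715) was lost in 8 of the 10 fits that left out 1 sample and with median scaling (0.15, adjusted p = 0.5526), and 3 of 6 were called with median scaling in place of quantile normalisation. With quantile normalisation 8153 sites of the genome were higher and 7127 lower in this comparison. With median scaling 12738 were higher and 7507 lower, around a median shifted by 0.46. So 68.1% of all sites were called with median scaling, the share to set beside its 3 of 6. These comparisons share samples with each other. In 5 of 6 sites every WT −DSB and R132H +DSB sample lay above every WT +DSB and R132H −DSB sample, which 20.3% of all sites did, and 19.3% did the reverse. At chr11:1953701 the gap was narrow and closed when the peak was compared as a region.

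**Figure D4:**
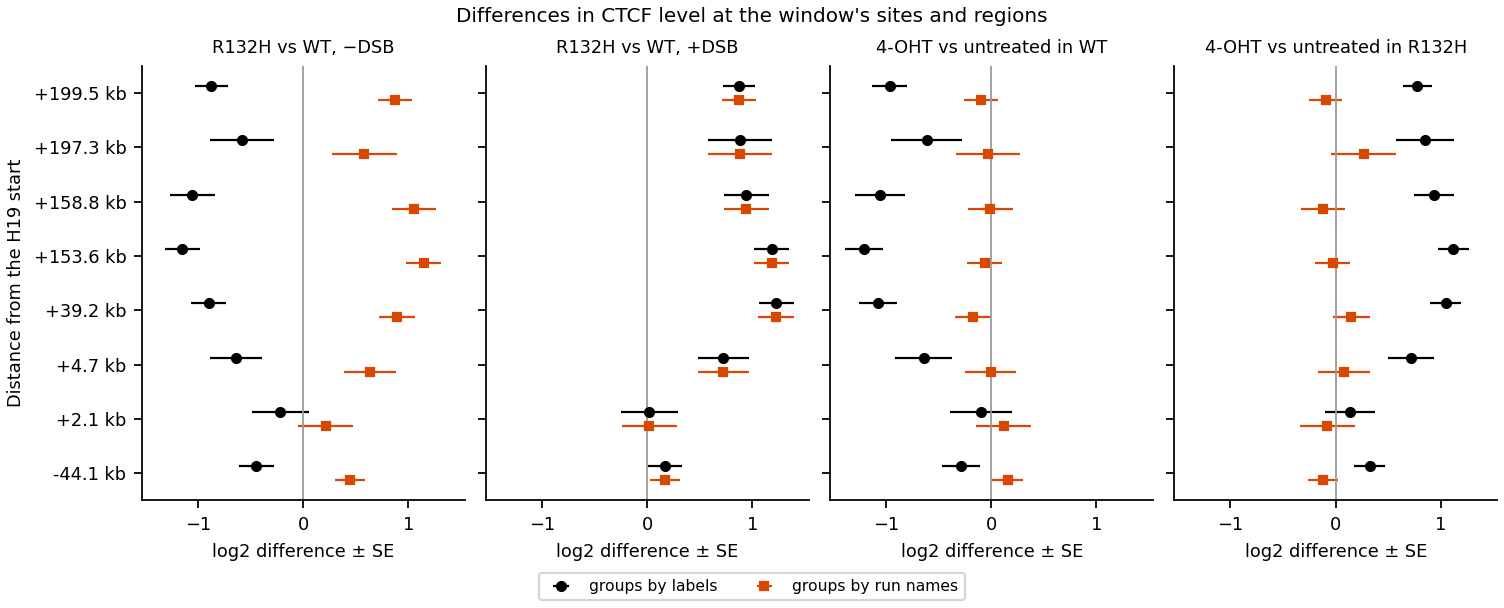
Log2 difference ± SE from limma (x axis) in 4 comparisons at the 6 sites and the 4.7 and 153.6 kb peak regions (y axis, distance from the commonest H19 start), with circles for groups by labels and squares for groups by run names. R132H against WT −DSB has opposite signs under the 2 groupings, R132H against WT +DSB is alike under both, and the changes with 4-OHT lie near 0 under the run names.

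The 2 blocks whose summits move between motifs were compared as peak regions, an analysis added after the data were seen. At the IGF2 upstream region the normalised fold was 42.0 and 39.6 in WT −DSB, 18.8 and 16.5 in WT +DSB, 15.4, 17.2 and 23.6 in R132H −DSB, and 43.4, 38.7 and 38.2 in R132H +DSB. WT −DSB and R132H +DSB did not overlap the other 2 groups, with nearest values of 38.2 and 23.6. R132H differed from WT by −1.15 −DSB (limma adjusted p = 0.002954, 22% of 35819 regions called) and by 1.19 +DSB (adjusted p = 0.001555, 35.2% called). With 4-OHT the change was −1.21 in WT (adjusted p = 0.002627, 31.2% called) and 1.12 in R132H (adjusted p = 0.001599, 25.5% called).

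At the distal H19 block the groups lay closer. Its normalised fold was 29.0 and 35.1 in WT −DSB, 26.15 and 15.95 in WT +DSB, 18.57, 18.96 and 24.53 in R132H −DSB, and 34.4, 34.9 and 32.1 in R132H +DSB. R132H against WT gave −0.64 −DSB (limma adjusted p = 0.08398) and 0.73 +DSB (adjusted p = 0.04288). With 4-OHT it changed by −0.64 in WT (adjusted p = 0.08756) and by 0.72 in R132H (adjusted p = 0.03697). The +DSB difference between genotypes was 0.37 with adjusted p = 0.3045 without WT +DSB replicate 2, and leaving out 1 sample ended this call in 4 of 5 fits and the 4-OHT call in R132H in 5 of 6. The difference between the genotypes in the change with 4-OHT was 1.36 (SE 0.35, adjusted p = 0.008959), against 2.33 (SE 0.23, adjusted p = 0.0001124) at the IGF2 region, where 51.4% of regions were called. Whether the H19 and IGF2 differences themselves differ was not tested.

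The directions between genotypes depend on which names are right. With groups taken from the run names, R132H was higher than WT −DSB at 4 of 6 sites (23.1% of sites called, 10.5% higher), with 0.90 at chr11:2037045, 1.05 at chr11:2156654 and 0.87 at chr11:2197384. It was higher +DSB at 4 of 6 as well (34.1% called). Under those names 4-OHT changed 0 of 6 sites in either genotype and 0 of 29716 in the genome by limma, with 1812 sites in WT and 852 in R132H at an unadjusted p under 0.05. The difference between the genotypes in the change with 4-OHT was then also called at 0 sites, with 1185 at an unadjusted p under 0.05.

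TET1 CD and TET1 dCD were compared in R132H cells, with 1 CD sample per treatment, which the fit assumes to vary like the other groups. Without damage limma called 0 of 29716 sites, and 727 had an unadjusted p under 0.05. With damage, 1 of 6 sites of the window was lower in CD, where 8.15% of sites were called and 4.46% lower. That site was chr11:2195125, with a normalised fold of 5.82 in CD +DSB against 17.8 and 17.3 in dCD +DSB, a log2 difference of −1.59 (SE 0.41, adjusted p = 0.04648). A dCD −DSB sample, replicate 3, read 5.83. The lists of that sample and of CD +DSB had fragments of 172 to 194 bp, and the part of fragment length was not tested. Under the run names 0 of 6 were called with damage (3.06% called). At the distal H19 block the CD samples read 27.2 −DSB and 36.5 +DSB and the dCD samples 21.98 and 36.37 −DSB and 32.4 and 31.2 +DSB, and at the IGF2 region CD read 31.98 and 33.47 and dCD 32.7 and 33.5 −DSB and 40.7 and 35.6 +DSB. Neither region passed the test, where 14.4% of regions were called +DSB. The chr11:2195125 call was lost without either dCD +DSB sample (limma adjusted p = 0.1096 and 0.1091).

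Weaker recurrent sites did not all move the same way. The site at chr11:2186866 beyond TH, in 23 lists, had a deposited fold of 3.82 to 7.02 in WT −DSB and R132H +DSB lists and of 8.55 to 23.9 in WT +DSB and R132H −DSB lists. Under the run names the lower range is that of the mutant lists and the higher that of the wild-type lists. In a fit of the sites in at least 20 lists, its change with 4-OHT differed between genotypes by −2.15 (SE 0.32, limma adjusted p = 0.0009262), where 51.3% of sites were called and 25.9% lower. The intergenic site at chr11:2074453, in 20 lists, went with the stronger sites at 1.43 (adjusted p = 0.002769). It was a weak peak of 7 to 27 reads, in 2 of 4 R132H −DSB and 3 of 4 R132H +DSB lists. Lists without the peak did not enter the fit at that site. The IGF2 intron site at chr11:2150372 and the TH exon site at chr11:2166271 did not pass, with 0.92 (adjusted p = 0.2688) and 0.62 (adjusted p = 0.2923).

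A site below the recurrence threshold was restricted to certain lists. The peak at chr11:2173364, between genes beyond TH, was in 4 of 4 WT +DSB and 4 of 4 R132H −DSB lists and in 0 of 3 WT −DSB and 0 of 4 R132H +DSB lists. Under the run names that is 8 of 8 wild-type and 0 of 7 mutant lists. Among the TET1 lists it was in CD −DSB (2 of 2) and dCD −DSB (1 of 3) only. For comparison, 31418 sites were in 4 to 11 of the 15 WT and R132H lists, and 9 of these lay in the window. Outside the window only recurrent sites were counted, so a site in 11 lists, like chr11:2173364, was left out there. Of the 31418 sites, 2.14% had this pattern and 0.111% the reverse, which are not shares of all sites in so few lists. The match at chr11:2173364 scored 17.8 with 1 CpG. The WT and R132H lists that held this peak were the deeper ones, and the part of depth in its presence was not tested. Just inside the threshold were chr11:1998519 with 12 lists and chr11:2151640 with 13, and just outside were chr11:2152144 and chr11:2173364 with 11 each.

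The window was set beside sites of like GC content and beside its neighbours on chromosome 11. Among the GC-richest 20% of sites outside the window, the median difference between the genotypes in the change with 4-OHT was −0.38, with 6.83% of sites called higher and 40.1% lower. The 6 sites of the window, all of that GC class, had differences of 0.23 to 2.12. Among the GC-poorest 20% the median was 0.502 with 44.1% called higher. Within 1 Mb below the window 13 sites had a median of 1.37 and 8 were called higher and 0 lower, and above it 12 sites had a median of 0.661 with 5 higher and 2 lower. The first 9 Mb of the chromosome held 128 sites outside the window with a median of 0.765, of which 71 were called higher (55.5%) and 6 lower. The next 21 Mb held 206 sites with a median of −0.136, of which 40 were higher (19.4%) and 63 lower. That stretch was chosen after its values were seen and carries no test. Under the run names 0 of 29716 sites were called in this comparison.

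**Figure D5:**
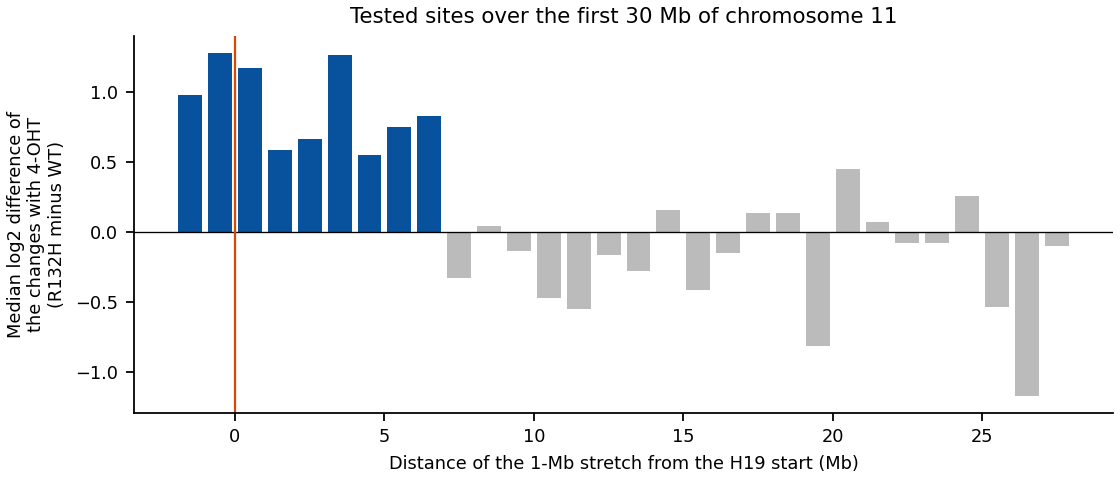
Median difference between the genotypes in the change with 4-OHT (log2, R132H minus WT, y axis) of the tested sites, in stretches of 1 Mb along the first 30 Mb of chromosome 11, against distance from the H19 start (Mb, x axis, start marked by a vertical line). Dark bars are the first 9 Mb, where all 9 medians are above 0, from 0.552 to 1.28.

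Over the 16 samples, the level of H19 repeat 1 did not follow the other sites of the window. Its Pearson correlation with them ran from −0.30 to 0.38, while that of chr11:2037045 with chr11:2156654 was 0.90 and with chr11:2197384 was 0.88. All sites were measured in the same samples, which differ in depth and fragment length, so these are descriptions. The sites in the genome most like H19 repeat 1 were chr6:13615281, 54 bp from NOL7 (r = 0.88), chr11:32173632 (r = 0.85, nearest protein-coding gene RCN1 at 67.9 kb) and chr11:47553294 inside CELF1 (r = 0.85).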

How the data were processed

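The window, the gene names and the lists were chosen with earlier results of these data known. CTCF ChIP-seq libraries (ChIP-IT High Sensitivity, NEBNext Ultra II) were aligned by the authors with Bowtie2 to hg38 and peaks were called per library with MACS2, whose versions differ between sources and are not given here. The deposited peak lists hold a score (not used), a fold over background as a linear ratio, and −log10 p-values and −log10 q-values, with no normalisation between lists. The deposited fold is (reads at the summit + 1)/(background + 1), from which the reads behind each peak and the depth of each list were recovered. The background was a single value for each list, so the fold holds no correction for local background, although the study names input as the control for peak calling. Depth assumes an effective genome of 2.7 Gb and a fragment length equal to the shortest peak of the list.

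Summits were assigned, strongest rank first, to a site centre within 150 bp, and recurrent meant at least 12 of 24 lists. Lists of a group were averaged as 1 sample where every pair among them agreed within sampling noise. R132H −DSB replicate 2 was within noise of replicate 4 (p = 0.33, upper chi-square tail) but not of replicate 3 (p = 0.0493), so it stayed its own sample. Log2 folds at sites in all 24 lists were quantile-normalised and fitted with limma 3.58.1 in R 4.3.3 over all 8 groups, with Benjamini-Hochberg adjustment over all sites and a threshold of 0.05. For peak counts, exact permutation tests on differences in means were 2-sided. By rule, the text names sites in all lists with a median rank within 20000, recurrent sites within 5 kb upstream of the H19 start, the best-ranked site of each of H19, IGF2, INS, TH and MRPL23, and the 3 sites outside the window most correlated with the H19 site. Other sites were named after their values were seen. Same-numbered lists of WT −DSB and WT +DSB had positive correlations of their deviations (0.2879, 0.1807 and 0.1266) and were taken as pairs, from the data alone. Replicate 2 matched its own number best and replicates 3 and 4 did not, so the pairing is uncertain. With every list as its own sample, 4 sites were called for 4-OHT in WT without and with the replicate block (3 on joined samples), and the peak difference was 3.33 without and 3 with it (2.83 on joined samples). Of all sites, 55.4% were called without the block and 56.2% with it. The tests were run on simulated data. For R132H against WT +DSB with 200 changed sites, limma called 9% of changes of 0.5 log2 and 54% of changes of 1. It made 5 false calls among the unchanged sites. In the data 10447 sites were called in this comparison, many more than the 200 changed here, so the threshold on the unadjusted p differs. Differences of these sizes can be missed, but the rate at which this happens in the data was not measured. Sequences came from the GRCh38 reference and gene models from GENCODE 44, and other software was Python 3.11.15, numpy 2.4.6 and pandas 2.3.3. Coordinates are 1-based. Alternatives are given in the closing section.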

Additional observations from a re-analysis of the deposited data

Results flagged for a closer look

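In 7 places the change with 4-OHT differed between WT and R132H cells by a test of the difference itself. In log2 units, R132H change minus WT change, limma gave 0.61 at the MRPL23 intron site chr11:1953701, 2.12 at the intergenic site chr11:2037045, 2.00 at the IGF2 intron site chr11:2156654, 1.47 at chr11:2195125 and 1.74 at chr11:2197384. As peak regions, the distal H19 block gave 1.36 and the IGF2 upstream region 2.33. Of all sites, 51.4% were called in this comparison, and with groups by the run names 0 were. The call at chr11:1953701 was lost with median scaling (0.15, adjusted p = 0.5526) and in 8 of 10 fits that left out 1 sample. The call at chr11:2195125 was lost with median scaling (0.93, adjusted p = 0.1634) and in 2 of 10 such fits, without WT −DSB replicate 2 (1.45) or without WT +DSB replicates 1, 3 and 4 (1.33). Depth and fragment length move with these groups, and their part was not tested. No group held 4 samples after joining lists, so no sample could be tested as an outlier.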

How the results depend on the processing

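The number of peaks in the window passed no test under any setting tried, and its signs were not stable. On joined samples the 4-OHT and TET1 tests could not pass at 0.05 whatever the counts. Their smallest possible exact permutation p was 0.333 in WT, 0.1 in R132H and 0.111 for TET1. R132H minus WT turned to −0.542 with −log10 q of at least 10, −0.75 with run names and −0.286 with the replicate block on every list, and ran from −0.0833 (without WT +DSB replicate 2) to 1.25 when 1 sample was left out. The change with 4-OHT in WT turned to −5.42 among the 20000 strongest peaks, and ran from 1.5 to 4.17 with 1 sample left out. In R132H it turned to −2.17 with −log10 q of at least 10, −0.333 with q under 0.05 and −0.00143 as a percent of the list, and ran from 0.667 to 2.42. TET1 CD minus dCD turned to 2.62 with −log10 q of at least 10, 1 with q under 0.05 and 0.00432 as a percent, and ran from −0.75 to −0.25. Of the 6 tested sites, the calls for R132H against WT −DSB numbered 5 (4 lower and 1 higher, of 10 sites) when sites in at least 20 lists were tested, 5 of 6 with the replicate block and 4, in the other direction, with run names, and 2 to 3 with 1 sample left out. For R132H against WT +DSB they numbered 2 to 3 with 1 sample left out, with 2 only without WT +DSB replicate 2. For 4-OHT in WT they numbered 5 (4 lower and 1 higher, of 10 sites) when sites in at least 20 lists were tested, 0 with run names and 2 to 3 with 1 sample left out, and in R132H 0 with run names and 3 in each fit that left out 1 sample. For the difference between the changes they numbered 3 with median scaling, 0 with run names and 3 to 5 with 1 sample left out. The lowest, 3, came without WT −DSB replicate 2 and without WT +DSB replicates 1, 3 and 4. For TET1 CD against dCD −DSB they numbered 0 to 1 (1 without dCD −DSB replicates 1 and 2). For TET1 CD against dCD +DSB they numbered 3 with every list as a sample, 4 with the replicate block, 0 with run names and 0 without either dCD sample. The only CD sample of a treatment cannot be left out. With lists joined wherever any pair agreed, an alternative chosen after seeing the data, the calls numbered 3, 3, 3, 3 and 4 in the WT and R132H comparisons and 0 for both TET1 comparisons, with the calls at chr11:2195125 (except the difference between the changes) and chr11:1953701 lost at adjusted p of 0.05583 to 0.08187. With run names the sign turned for R132H against WT −DSB at chr11:2037045 (0.90), chr11:2156654 (1.05), chr11:2197384 (0.87) and the IGF2 region (1.15), for 4-OHT in R132H at chr11:2156654 (−0.12), chr11:2197384 (−0.094) and the IGF2 region (−0.026), and for the difference between the changes at chr11:1953701 (−0.27) and chr11:2156654 (−0.11). The cause of these changes was not tested. With lists joined wherever any pair agreed, 16.9%, 33.8%, 29.3%, 20.2% and 48.6% of all sites were called in the WT and R132H comparisons, in the order above.

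Over the genome, calls rose from 7074 to 11453 with every list as a sample and to 11921 with the replicate block for R132H against WT −DSB, from 10447 to 17173 and 17585 +DSB, from 9076 to 16461 and 16694 for 4-OHT in WT, from 8471 to 12111 and 12843 for 4-OHT in R132H, and from 2421 to 10156 and 10573 for TET1 CD against dCD +DSB. Median scaling moved the median of all sites by −0.20, 0.26, −0.26, 0.20 and 0.46 in the WT and R132H comparisons and −0.22 in TET1 +DSB. It called 4986 higher and 8144 lower −DSB in place of 3852 and 3222, 11018 and 5977 +DSB in place of 5368 and 5079, 5490 and 10232 for 4-OHT in WT in place of 4469 and 4607, 9529 and 5637 for 4-OHT in R132H in place of 4029 and 4442, and 3143 and 7432 for TET1 +DSB in place of 1095 and 1326. Outside WT, same-numbered lists did not all deviate together (correlations −0.1192 to 0.2167), and they were taken to share only a number. Those of WT +DSB and R132H +DSB did have positive correlations in every pair, from 0.02 to 0.2167. The replicate block gave 4, 4 and 5 of 6 calls for R132H against WT +DSB, 4-OHT in R132H and the difference between the changes. Of all sites, 59.2%, 43.2% and 65.3% were called there.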
